A study of Mus musculus with 9 samples.

Results

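Aminoacyl-tRNA synthetases, the enzymes that join each amino acid to its tRNA, were followed in RNA-seq libraries of mouse R1 embryonic stem cells grown as embryoid bodies. The genes were chosen by symbol, as 1 letter for the amino acid followed by ars and an optional suffix, or as Eprs. This took 38 of the 22322 genes listed, and the deposited description of all 38 names a tRNA synthetase. By their symbols and known locations 21 encode cytosolic enzymes and 17 mitochondrial ones, and Tarsl2 was counted as cytosolic. Another 4 genes whose description holds the same words, Aimp1, Aimp2, Aarsd1 and Prorsd1, fall outside the symbol rule. There were 3 groups of 3 libraries, carrying a hairpin against Pfkp (sh-Pfkp, genotype given as Pfkp knockdown), a hairpin against Lin41 (sh-Lin41, given as Lin41 knockdown) or a control hairpin (sh-ctrl, genotype given as WT). All 9 were labelled as 6 days of embryoid body formation, in which stem cells aggregate in suspension without LIF, the cytokine that holds them undifferentiated. The labels name a single hairpin for each gene and no rescue, so an effect of a hairpin and an effect of losing its target cannot be told apart. Pfkp, a glycolytic phosphofructokinase, is named in the series title as the kinase of Lin41, the RNA-binding protein that Trim71 encodes, and the deposited tables set each knockdown against control.

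Synthetases fall into class I and class II, which have unrelated catalytic folds and each serve about as many amino acids. Cytosolic translation and mitochondrial translation mostly use separate nuclear genes, but Gars and Kars each encode both forms, and mitochondrial glutaminyl-tRNA is made by way of an amidotransferase. In the cytosol of animal cells several synthetases sit in the multisynthetase complex, held by the scaffold proteins Aimp1, Aimp2 and Eef1e1. Several cytosolic synthetase genes are described as targets of ATF4, the transcription factor of the amino acid response, which binds C/EBP-ATF response elements.

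That element is shown here because it was found in promoters of cytosolic enzymes and in none of the mitochondrial ones searched. RefSeq promoters on GRCm38.p6, running from 250 bases before to 50 bases after the annotated start, were at hand for 28 of the 38 genes, 14 cytosolic and 14 mitochondrial. The core TGATGNAA, searched on both strands, lay in 5 of 14 cytosolic and 0 of 14 mitochondrial promoters, against 4.51% of 27025 genes. The following 30-base windows hold 5 of these matches, 1 for each gene, printed 5′ to 3′ on the gene's strand with the match in capitals.
Aars, chr8:111033840-111033869, plus strand: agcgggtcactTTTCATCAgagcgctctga
Gars, chr6:55037960-55037989, plus strand: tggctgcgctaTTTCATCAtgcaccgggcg
Iars, chr13:49682126-49682155, plus strand: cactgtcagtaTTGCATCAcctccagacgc
Tars, chr15:11399655-11399684, minus strand: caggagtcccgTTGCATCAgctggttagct
Yars, chr4:129189895-129189924, plus strand: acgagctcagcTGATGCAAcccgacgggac
In Aars this match begins at position 10, where the annotated start is position 1 and the base before it is -1. The matches begin at -30 in Gars, 8 in Iars, -15 in Tars and 4 in Yars, and in all but Yars the element reads on the opposite strand. A match describes the letters and is not evidence of binding.

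The 250 bases upstream of Gars, where the match is in capitals, can be set beside those of Dars, a gene with no match. Both genes fell in sh-Lin41, and Dars had one of the largest falls there.
Gars, chr6:55037751-55038000, plus strand: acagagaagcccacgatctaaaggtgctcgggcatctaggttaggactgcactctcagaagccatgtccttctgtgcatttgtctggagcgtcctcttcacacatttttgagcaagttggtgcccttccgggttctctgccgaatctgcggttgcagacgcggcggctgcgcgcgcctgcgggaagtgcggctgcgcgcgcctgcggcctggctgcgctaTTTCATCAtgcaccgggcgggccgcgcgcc
Dars, chr1:128417417-128417666, minus strand: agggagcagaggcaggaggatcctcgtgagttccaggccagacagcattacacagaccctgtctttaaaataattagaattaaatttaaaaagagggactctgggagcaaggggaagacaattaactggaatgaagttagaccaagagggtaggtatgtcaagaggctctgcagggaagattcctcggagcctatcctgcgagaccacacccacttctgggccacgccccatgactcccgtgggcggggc
An E-box core, CACGTG, lay in 5 of the 28 promoters (Aars, Ears2, Farsb, Iars and Tars), against 8.09% of all genes. The core motif of NRF1, a regulator of nuclear genes for mitochondrial function, also lay in 5 of the 28 (Farsb, Iars2, Kars, Mars2 and Tars), against 5.19% of all genes. None of the matches in these promoters shared a base with another.

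Total counts ran from 15495194 to 20607683 per library, and the synthetase genes held between 87 and 10405 counts in a library. Levels below are in CPM, the read count scaled to a common library size with TMM factors. The targeted genes were lower in their own groups without overlap. Pfkp had 102, 101 and 105 CPM in the sh-Pfkp libraries, 233, 227 and 222 CPM in sh-Lin41 and 248, 245 and 248 CPM in sh-ctrl. Trim71 had 349.6, 359.9 and 347 CPM in the sh-Pfkp libraries, 165, 158 and 156 CPM in sh-Lin41 and 273, 264 and 269.7 CPM in sh-ctrl, and in sh-Pfkp it was higher than in sh-ctrl, at 0.39 (adjusted p = 4.05e-15) on the log2 scale. The labelled cell type was checked against its markers, and 8 of 8 pluripotency markers had at least 10 CPM in sh-ctrl. Their sh-ctrl means ran from 253 (Utf1) to 984 CPM (Tdgf1). The 8 summed to 4344 to 4427 CPM in sh-Pfkp, 5542 to 5575 in sh-Lin41 and 4774 to 4858 in sh-ctrl. Of them 3 rose and 5 fell in sh-Pfkp, and 5 rose and 2 fell in sh-Lin41 (100% and 87.5% called, beside 56.6% and 54.3% of all tested genes). Of markers of primitive streak and mesoderm 4 of 5, and of endoderm 3 of 4, were under 1 CPM in sh-ctrl. Markers of neuroectoderm summed to 107 to 113 CPM in sh-Pfkp, 76.0 to 82.0 in sh-Lin41 and 81.5 to 83.2 in sh-ctrl. Tubb3 made up most of these sums. In the same order of groups Sox1 averaged 13.5, 17.2 and 8.02 CPM and Pax6 15.6, 7.28 and 7.33 CPM. Of 8 markers of fibroblasts or stroma, 6 were under 1 CPM in sh-ctrl, and the list summed to 25.5 to 29.5 CPM in sh-Pfkp, 4.68 to 5.72 in sh-Lin41 and 5.38 to 5.84 in sh-ctrl. Of the 6 tested 5 rose in sh-Pfkp and 1 fell, Thy1, with a mean of 1.85 CPM there and 3.70 in sh-ctrl. No marker of any list was at 0 in all libraries. The part of these cells in the synthetase values was not tested, and in bulk RNA fewer cells of a type and less RNA per cell cannot be told apart. Whether the libraries within a group stem from different cultures is not in the labels, and the p-values therefore describe library spread alone, which may be technical.

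All 38 synthetase genes were expressed, and the cytosolic enzymes stood far above the mitochondrial ones. Per length, in FPKM as deposited, the cytosolic genes had a median level of 74.0 FPKM in sh-Pfkp, 74.5 in sh-Lin41 and 83.9 in sh-ctrl. The mitochondrial genes had a median level of 9.11 FPKM in sh-Pfkp, 9.15 in sh-Lin41 and 8.07 in sh-ctrl, and the 17 of them made up 10.7% of the summed synthetase FPKM in sh-Pfkp, 10.8% in sh-Lin41 and 9.93% in sh-ctrl. Kars, for lysine, had the highest level in sh-ctrl, at 206 ± 0.893 FPKM (SD, n = 3), followed by Gars, for glycine, at 189 ± 2.196 and Farsb, the beta subunit of phenylalanyl-tRNA synthetase, at 137 ± 0.809. The sh-ctrl libraries of these 3 genes did not overlap each other. Farsb stood above its partner subunit Farsa, at 75.2 ± 2.27 FPKM.

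In sh-ctrl, 19 cytosolic genes ranked above every mitochondrial one, although the lowest of them, Cars for cysteine (34.9 ± 2.03 FPKM), overlapped the highest mitochondrial gene, Tars2 for threonine (32.1 ± 1.93 FPKM). The other 2 cytosolic genes were Wars, for tryptophan, at 12.8 ± 0.923 FPKM, which overlapped Sars2, and Tarsl2, a paralog of threonyl-tRNA synthetase, at 4.32 ± 0.168 FPKM. Wars2 had the lowest level, at 1.91 ± 0.0666 FPKM. Neighbours whose sh-ctrl libraries overlapped included Nars and Eprs, Dars and Yars, Farsa and Aars, and Iars2, Cars2 and Yars2. Qars, for glutamine, had an FPKM SD of 15.6 around 99.4 in sh-ctrl, while its CPM there lay at 179, 183 and 183, a far narrower range. The largest spread of a gene within a group, as SD over mean of CPM, had a median of 2.85% over the cytosolic genes and 8.04% over the mitochondrial ones, which have fewer counts.

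**Figure D1:**
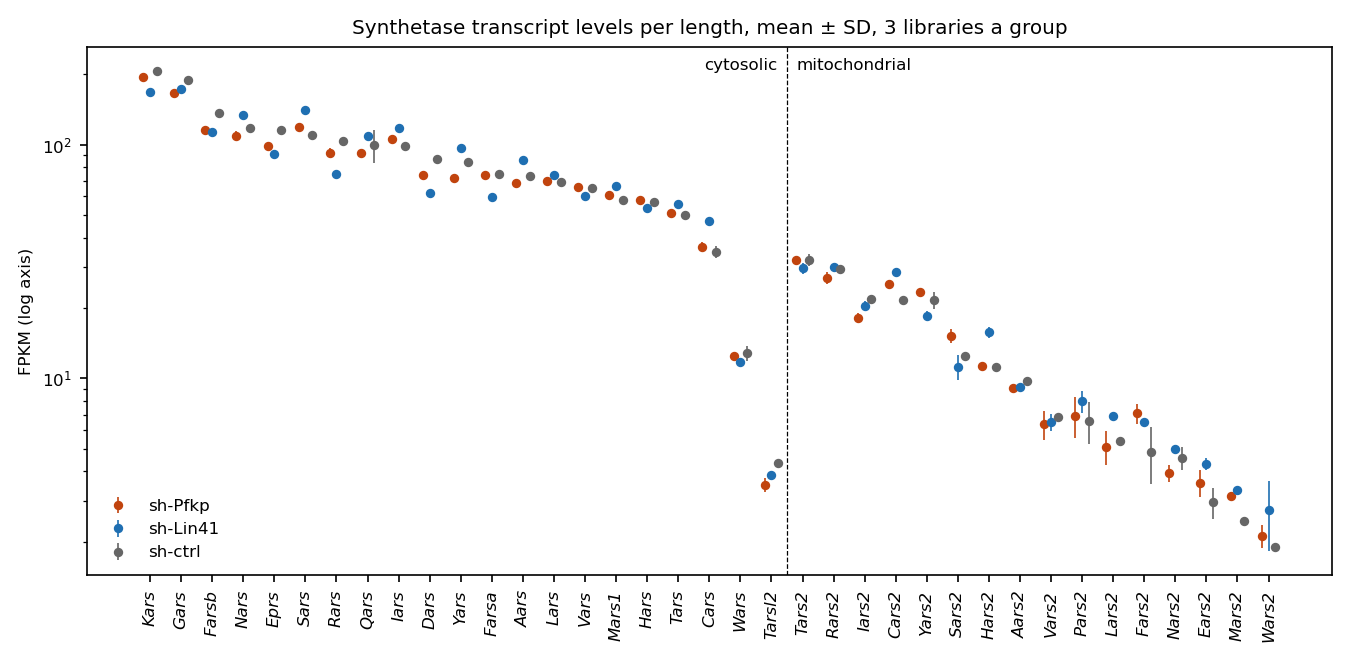
Level per length of 37 of the 38 synthetase genes in FPKM on a log axis, as mean and SD of 3 libraries in sh-Pfkp, sh-Lin41 and sh-ctrl, with cytosolic genes left of the dashed line. Cytosolic genes lay mostly between 34.9 and 206 FPKM in sh-ctrl, and Wars and Tarsl2 were the cytosolic genes at the level of the mitochondrial ones.

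Both knockdowns shifted many synthetase genes by small amounts, and none by 2-fold or more, beside 6.51% of tested genes in sh-Pfkp, 4.26% in sh-Lin41 and 4.49% between the knockdowns that were called at that size. Against sh-ctrl, the log2 fold changes of the 38 genes ran from -0.26 to 0.40 in sh-Pfkp and from -0.47 to 0.54 in sh-Lin41. A gene was called changed at an adjusted p under 0.05 over the 13158 genes tested, with edgeR's quasi-likelihood test. Both comparisons use the same sh-ctrl libraries, so they are not independent of each other. In the authors' deposited comparisons, 18 of the 38 genes had an FDR under 0.05 for sh-Pfkp and 27 for sh-Lin41. The share of all genes under that FDR was not counted. The deposited log2 ratios of mean FPKM ran from -0.31 to 0.54 in sh-Pfkp and from -0.48 to 0.54 in sh-Lin41, so none of the 38 reached 2-fold.

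**Figure D2:**
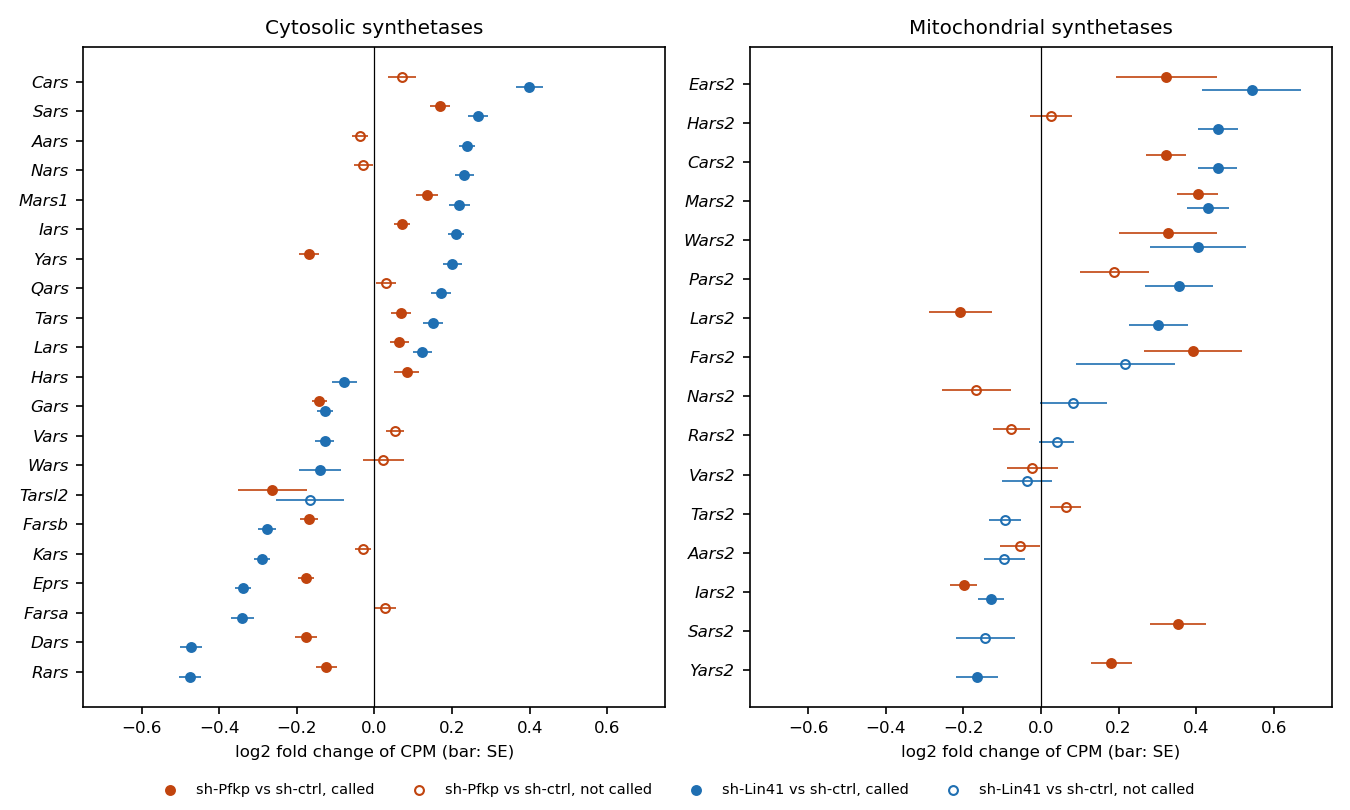
Log2 fold change of CPM against sh-ctrl, with its SE, for the 21 cytosolic genes (left) and 16 of the 17 mitochondrial genes (right), ordered by the change in sh-Lin41. Filled points were called and open points were not, and the cytosolic genes at the bottom left had lower values in sh-Lin41 than in sh-Pfkp, as Rars did at -0.12 in sh-Pfkp and -0.47 in sh-Lin41.

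In sh-Pfkp against sh-ctrl, 23 of the 38 genes were called, 14 higher and 9 lower, or 60.5% where the share over all tested genes was 56.6%. The cytosolic genes moved in both directions. Of 21, 6 rose (Hars, Iars, Lars, Mars1, Sars and Tars), 7 fell (Dars, Eprs, Farsb, Gars, Rars, Tarsl2 and Yars) and 8 were not called (Aars, Cars, Farsa, Kars, Nars, Qars, Vars and Wars, from -0.036 to 0.071). The 21 had a median log2 fold change of 0.023, beside -0.005 over all tested genes. Over all tested genes 28.3% were called higher and 28.3% lower, and among those averaging 30 CPM or more, where most cytosolic synthetases lie, 66.4% were called. The libraries of the 2 groups did not overlap for 12 synthetase genes higher in sh-Pfkp and 10 lower, beside 30.2% and 30.8% of all tested genes (61% in either direction). The shifts were small. Sars, the seryl enzyme, rose most among the cytosolic genes, by 0.17 ± 0.026 (SE; adjusted p = 2.17e-06) on the log2 scale. It had 189, 185 and 191 CPM in the sh-Pfkp libraries, against 166, 164 and 172 CPM in the sh-ctrl libraries. No sh-Pfkp library overlapped a control. Mars1, the methionyl enzyme of the complex, rose by 0.14 (adjusted p = 0.000124), with 180.3, 179 and 191 CPM in the sh-Pfkp libraries, against 167, 166 and 168 CPM in the sh-ctrl libraries.

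The genes that fell in sh-Pfkp included enzymes inside the complex and outside it. Eprs, the bifunctional glutamyl-prolyl enzyme, fell to 489, 501 and 496 CPM in sh-Pfkp, against 547, 564 and 568 CPM in sh-ctrl, a log2 fold change of -0.18 ± 0.021 (SE; adjusted p = 1.48e-08). Dars, for aspartate, had 159.9, 164 and 168 CPM in the sh-Pfkp libraries, against 181, 190.3 and 185 CPM in the sh-ctrl libraries, a log2 fold change of -0.18 ± 0.027 (SE; adjusted p = 1.81e-06). For Yars, for tyrosine, the values were 215, 209.9 and 219 CPM in the sh-Pfkp libraries, against 243, 238 and 244 CPM in the sh-ctrl libraries, a log2 fold change of -0.17 ± 0.026 (SE; adjusted p = 1.29e-06). In these 3 genes every sh-Pfkp library lay below every sh-ctrl library. Farsb fell by 0.17 on the log2 scale (adjusted p = 3.72e-07), while its partner Farsa had a log2 fold change of 0.027 (95% interval -0.033 to 0.087) and was not called. The dual-compartment gene Gars fell at -0.14 (adjusted p = 2.92e-07), while Kars, the other one, was not called at -0.029 (95% interval -0.071 to 0.012). Kars was called lower as well with limma on log2(FPKM + 1). Rars, for arginine, fell at -0.12 (adjusted p = 0.000309) and Tarsl2 at -0.26 (adjusted p = 0.013).

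The cytosolic calls nearest the threshold depended on single libraries. Leaving out 1 library ended the calls of Hars without sh-Pfkp replicate 1 or 3 or sh-ctrl replicate 1 or 2 (adjusted p from 0.0507 to 0.138) and of Lars without sh-Pfkp replicate 2 or 3 or sh-ctrl replicate 1 (adjusted p from 0.0594 to 0.115). It also ended the calls of Tars without sh-Pfkp replicate 3 or sh-ctrl replicate 2 (adjusted p from 0.0539 to 0.084) and of Tarsl2 without sh-Pfkp replicate 2 or sh-ctrl replicate 1 (adjusted p from 0.052 to 0.0825). Calls were gained by Aars without sh-ctrl replicate 2 (adjusted p = 0.0487) and by Cars without sh-Pfkp replicate 1 or sh-ctrl replicate 3 (adjusted p = 0.0307). A call was gained by Vars without sh-Pfkp replicate 2 or sh-Lin41 replicate 1, 2 or 3 or sh-ctrl replicate 3 (adjusted p from 0.0234 to 0.046). Without sh-Pfkp replicate 3, 3 cytosolic genes were called higher in place of 6. On log2(FPKM + 1) with limma, 2 were called higher and 10 lower in place of 6 and 7. Hars, Lars, Mars1 and Tars lost their calls there, and Aars at -0.091 (adjusted p = 0.0245), Kars at -0.074 (adjusted p = 0.0108) and Nars at -0.11 (adjusted p = 0.0184) were called lower. With DESeq2 the calls of Hars (adjusted p = 0.0735) and Tarsl2 (adjusted p = 0.0719) were lost. The strand setting is not given, so reads of exons shared with an opposite-strand gene cannot be told apart, which in GENCODE M21 applies to Hars with Hars2, Farsb with Sgpp2, Mars1 with Ddit3 and Yars with C77080. It also applies to Cars with the pseudogene Gm15580 and to Aars with the microRNA gene Gm24103. On the same strand, Aars shares 14.3% of its exon bases with Exosc6, and Tarsl2 shares 1.78% with Tm2d3. Reads there may belong to either gene whatever the strand setting.

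Among the mitochondrial genes of sh-Pfkp, 8 of 17 rose (among them Cars2, Ears2, Fars2, Mars2, Sars2, Wars2 and Yars2), 2 fell (Iars2 and Lars2) and 7 were not called (Aars2, Hars2, Nars2, Pars2, Rars2, Tars2 and Vars2, from -0.17 to 0.19). That is 58.8% called, beside 59.2% of tested genes averaging 5 to 100 CPM. Their median log2 fold change was 0.18, beside -0.005 over all tested genes. The total over the 17 genes was 549.6, 551 and 544 CPM in sh-Pfkp, against 528, 525 and 521 CPM in sh-ctrl, so every sh-Pfkp library lay above every sh-ctrl library. Mars2, the mitochondrial methionyl enzyme, rose most. It had 37.0, 37.3 and 34.7 CPM in the sh-Pfkp libraries, against 28.2, 26.9 and 27.4 CPM in the sh-ctrl libraries, a log2 fold change of 0.40 ± 0.054 (SE; adjusted p = 1.27e-07). Sars2, the mitochondrial seryl enzyme, rose to 25.8, 27.6 and 29.8 CPM in sh-Pfkp, against 22.03, 21.7 and 21.3 CPM in sh-ctrl, a log2 fold change of 0.35 ± 0.072 (SE; adjusted p = 0.000103). Neither gene's groups overlapped.

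Cars2, for cysteine, had 46.9, 42.5 and 46.4 CPM in the sh-Pfkp libraries, against 34.2, 36.9 and 37.4 CPM in the sh-ctrl libraries, a log2 fold change of 0.32 ± 0.052 (SE; adjusted p = 3.27e-06). Yars2 rose by 0.18 (adjusted p = 0.00367). Iars2, for isoleucine, was lower in all sh-Pfkp libraries, with 88.7, 85.3 and 84.3 CPM in the sh-Pfkp libraries, against 99.5, 99.2 and 98.0 CPM in the sh-ctrl libraries. It fell at -0.20 (adjusted p = 1.04e-05) on the log2 scale. In GENCODE M21, exons of Rab3gap2 on the opposite strand cover 22.9% of the exon bases of Iars2. Shorter opposite-strand overlaps exist for Cars2 with Naxd (5.83%), Fars2 with Nrn1 (8.72%) and Ears2 with Ubfd1 (1.73%). Ears2, Fars2, Wars2 and Lars2 had groups that overlapped, at 0.32, 0.39, 0.33 and -0.21 on the log2 scale. Leaving out 1 library ended the calls of Ears2 without sh-Pfkp replicate 1 or 2 or sh-ctrl replicate 1 (adjusted p from 0.0692 to 0.21) and of Fars2 without sh-Pfkp replicate 2 or sh-ctrl replicate 3 (adjusted p from 0.0709 to 0.107). It also ended the calls of Lars2 without sh-Pfkp replicate 2 or 3 or sh-ctrl replicate 1 or 3 (adjusted p from 0.0544 to 0.18) and of Wars2 without sh-Pfkp replicate 3 or sh-ctrl replicate 3 (adjusted p from 0.137 to 0.221). A call was gained by Pars2 without sh-Pfkp replicate 1 or sh-ctrl replicate 1 (adjusted p from 0.0253 to 0.0277). With limma on log2(FPKM + 1), 4 mitochondrial genes were called higher in place of 8, and the 2 called lower were Iars2 and Rars2 instead of Iars2 and Lars2. With DESeq2 or without sh-Pfkp replicate 2 or 3 or sh-ctrl replicate 1 or 3, 1 was called lower in place of 2. The calls lost with DESeq2 were those of Lars2 (adjusted p = 0.112), Ears2 (adjusted p = 0.104) and Wars2 (adjusted p = 0.0805).

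In sh-Lin41 against sh-ctrl, 30 of the 38 genes were called, 18 higher and 12 lower, or 78.95% where the share over all tested genes was 54.3% (26.9% higher and 27.3% lower). The groups did not overlap for 18 genes higher in sh-Lin41 and 15 lower, beside 29.3% and 29.7% of all tested genes (59% in either direction). Among the cytosolic genes 20 of 21 were called, 10 in each direction, and Tarsl2 was the exception at -0.17 (95% interval -0.35 to 0.013). That is 95.2% of them, beside 68.9% of tested genes averaging 30 CPM or more. Their median log2 fold change was -0.078 (all tested genes 0.0043), and the genes moved in both directions. Their sum was 4851, 4937 and 4897 CPM in sh-Lin41, against 4945, 4938 and 5011 CPM in sh-ctrl, so the highest sh-Lin41 sum came close to the lowest sh-ctrl sum. Of the class I genes 6 rose and 4 fell, and of the class II genes 4 rose and 6 fell.

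The largest cytosolic falls were those of Rars and Dars, both enzymes of the multisynthetase complex. Rars (ENSMUSG00000018848) fell to 157, 156 and 153 CPM in sh-Lin41, against 217, 214 and 218 CPM in sh-ctrl, a log2 fold change of -0.47 ± 0.028 (SE; adjusted p = 1.88e-15). Dars fell to 133, 134 and 134 CPM in sh-Lin41, against 181, 190.3 and 185 CPM in sh-ctrl, a log2 fold change of -0.47 ± 0.028 (SE; adjusted p = 1.26e-15). Eprs had 432, 456 and 439 CPM in the sh-Lin41 libraries, against 547, 564 and 568 CPM in the sh-ctrl libraries, a log2 fold change of -0.34 ± 0.021 (SE; adjusted p = 4.9e-15). None of these groups overlapped, and Kars, also of the complex, fell in the same way at -0.29 ± 0.021 (SE; adjusted p = 1.38e-13). The other complex enzymes rose, Mars1 by 0.22 (adjusted p = 4.99e-08), Iars by 0.21 (adjusted p = 9.87e-11), Qars by 0.17 (adjusted p = 1.31e-06) and Lars by 0.12 (adjusted p = 7.19e-05). So of 8 complex enzymes 3 rose, 3 fell and 2 were not called in sh-Pfkp, and 4 rose and 4 fell in sh-Lin41. That is 75% and 100% called, beside 66.4% and 68.9% of tested genes averaging 30 CPM or more. The sh-Pfkp counts became 1 higher and 4 lower with limma on log2(FPKM + 1). In sh-Lin41 Qars was not called by limma on that scale, on which its sh-ctrl values spread widely.

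Both subunits of the cytosolic phenylalanyl enzyme fell in sh-Lin41. Farsa had 107, 107 and 106 CPM in the sh-Lin41 libraries, against 131, 136 and 139 CPM in the sh-ctrl libraries, a log2 fold change of -0.34 ± 0.030 (SE; adjusted p = 2.96e-11). Farsb had 199, 199.9 and 198 CPM in the sh-Lin41 libraries, against 239, 239.6 and 245 CPM in the sh-ctrl libraries, a log2 fold change of -0.28 ± 0.024 (SE; adjusted p = 1.43e-11). No library of either gene overlapped between the groups. Of the remaining class II genes Gars fell at -0.13 (adjusted p = 1.85e-06) and Hars at -0.078 (adjusted p = 0.0431). Of the class I genes Vars, for valine, fell at -0.13 (adjusted p = 3.74e-05) and Wars at -0.14 (adjusted p = 0.0265).

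Among the rising cytosolic genes in sh-Lin41, Cars, which charges cysteine, moved most, at 0.40 ± 0.035 (SE; adjusted p = 2.44e-11) on the log2 scale. It had 113, 119 and 117 CPM in the sh-Lin41 libraries, against 88.2, 84.9 and 91.8 CPM in the sh-ctrl libraries. Sars rose to 204, 202 and 199 CPM in sh-Lin41, against 166, 164 and 172 CPM in sh-ctrl, a log2 fold change of 0.27 ± 0.026 (SE; adjusted p = 2.55e-10). Aars, for alanine, had 473, 474 and 483 CPM in the sh-Lin41 libraries, against 411, 392 and 407 CPM in the sh-ctrl libraries, a log2 fold change of 0.24 ± 0.021 (SE; adjusted p = 1.42e-11). All sh-Lin41 libraries of these genes lay above all sh-ctrl libraries. Nars, for asparagine, rose by 0.23 (adjusted p = 1.67e-09), Yars by 0.20 (adjusted p = 3.31e-08) and Tars by 0.15 (adjusted p = 7.7e-06). Calls lost on leaving out 1 library were those of Hars without sh-Pfkp replicate 3 or sh-Lin41 replicate 1 or 2 or sh-ctrl replicate 1, 2 or 3 (adjusted p from 0.0505 to 0.132) and of Wars without sh-Lin41 replicate 2 or 3 or sh-ctrl replicate 1 or 3 (adjusted p from 0.0582 to 0.157). Neither was called with DESeq2 or with limma on log2(FPKM + 1), and Hars was also not called when no filter on low counts was applied. Hars and Hars2 overlap on opposite strands over 195 exon bases in GENCODE M21, so reads there may belong to either.

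**Figure D3:**
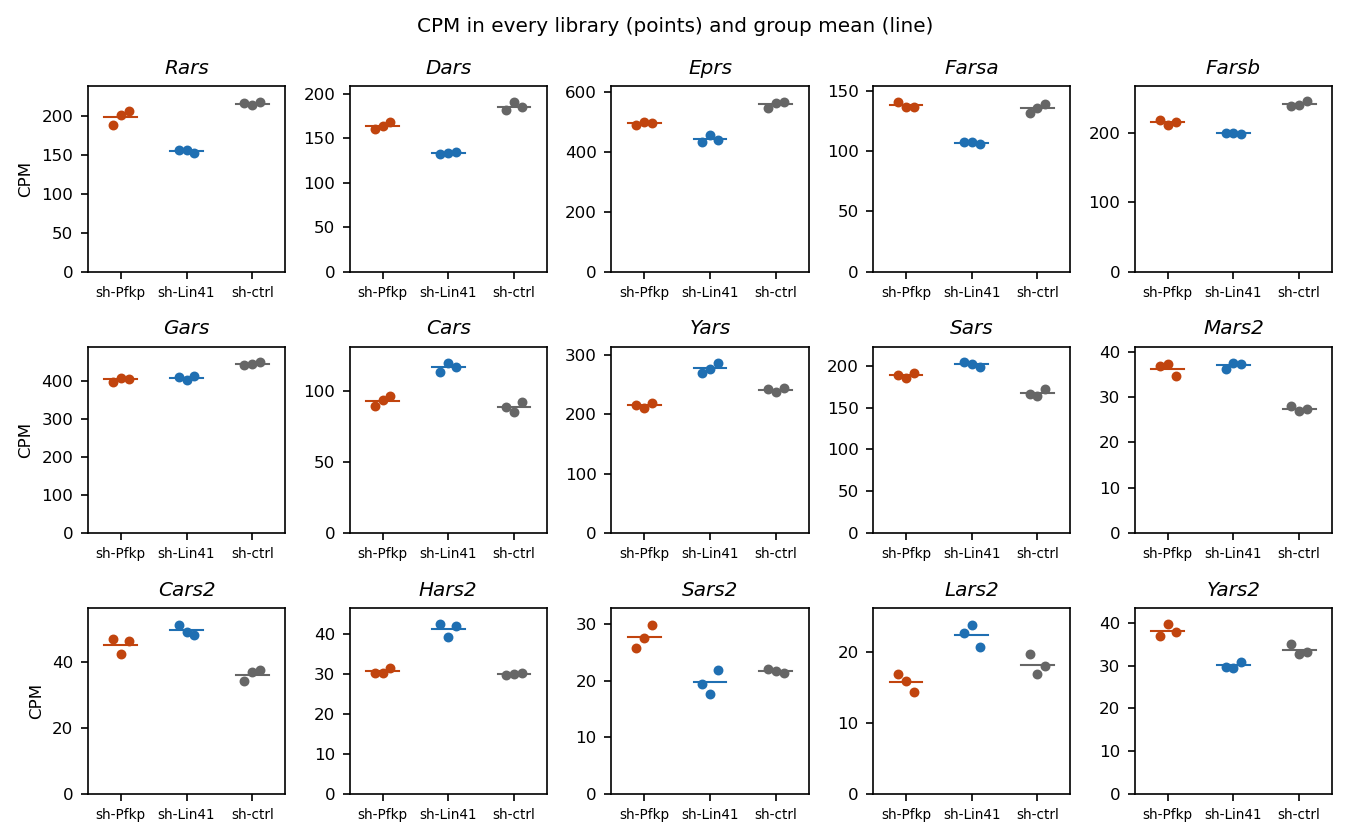
CPM in each of the 3 libraries of sh-Pfkp, sh-Lin41 and sh-ctrl (points) with the group mean (line) for 15 synthetase genes, on linear axes from 0. Rars, Dars, Eprs and Farsa were lowest in sh-Lin41, Cars and Yars were highest there, and Mars2 and Cars2 were higher in both knockdowns than in sh-ctrl.

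The mitochondrial genes of sh-Lin41 had 8 rises (among them Cars2, Ears2, Hars2, Lars2, Mars2, Pars2 and Wars2), 2 falls (Iars2 and Yars2) and 7 without a call (Aars2, Fars2, Nars2, Rars2, Sars2, Tars2 and Vars2, from -0.14 to 0.22). That is 58.8% called, beside 56.6% of tested genes averaging 5 to 100 CPM. The median log2 fold change was 0.22, beside 0.0043 over all tested genes, and the 17 genes summed to 568, 564 and 556 CPM in sh-Lin41, against 528, 525 and 521 CPM in sh-ctrl. No sh-Lin41 sum fell within the sh-ctrl range. Hars2, for histidine, had 42.4, 39.3 and 42.0 CPM in the sh-Lin41 libraries, against 29.8, 29.99 and 30.2 CPM in the sh-ctrl libraries, a log2 fold change of 0.46 ± 0.051 (SE; adjusted p = 4.87e-09). Cars2 had 51.3, 49.1 and 48.3 CPM in the sh-Lin41 libraries, against 34.2, 36.9 and 37.4 CPM in the sh-ctrl libraries, a log2 fold change of 0.46 ± 0.051 (SE; adjusted p = 3.81e-09). Mars2 was higher in the same way, at 0.43 ± 0.053 (SE; adjusted p = 3.12e-08), and Ears2, for glutamate, had the largest value of all 38 genes, 0.54 ± 0.13 (SE; adjusted p = 0.000529), at 9.29, 8.44 and 8.42 CPM in sh-Lin41 and 4.98, 6.27 and 6.71 CPM in sh-ctrl. The groups of these 4 genes did not overlap.

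Lars2, for leucine, rose by 0.30 (adjusted p = 0.00123), Wars2 by 0.40 (adjusted p = 0.00649) and Pars2, for proline, by 0.36 (adjusted p = 0.000914). Iars2 fell at -0.13 (adjusted p = 0.0019) and Yars2 at -0.17 (adjusted p = 0.00979). Sars2, called higher in sh-Pfkp, was not called in sh-Lin41, at -0.14 (95% interval -0.30 to 0.0100), and Tars2 was near the threshold at -0.093 (adjusted p = 0.0517). Tars2 was called with DESeq2 size factors and in the fit of the 6 libraries compared. Calls lost on leaving out 1 library were those of Wars2 without sh-ctrl replicate 3 (adjusted p = 0.0845) and of Yars2 without sh-ctrl replicate 1 (adjusted p = 0.0563). Calls were gained by Fars2 without sh-ctrl replicate 2 (adjusted p = 0.00801) and by Sars2 without sh-Lin41 replicate 3 (adjusted p = 0.0193). A call was gained by Tars2 without sh-Pfkp replicate 1, 2 or 3 (adjusted p from 0.0474 to 0.0499). With limma on log2(FPKM + 1), Iars2, Pars2 and Wars2 lost their calls and Fars2 gained one, which left 1 mitochondrial gene lower in place of 2. The count was also 1 without sh-ctrl replicate 1.

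Over both comparisons against the same sh-ctrl libraries, 10 genes were called higher in each knockdown, including Iars, Lars, Mars1, Sars and Tars in the cytosol and, among others, Cars2, Ears2, Mars2 and Wars2 in mitochondria. Another 6 were called lower in each, Dars, Eprs, Farsb, Gars, Rars and Iars2. Hars and Yars2 were called higher in sh-Pfkp and lower in sh-Lin41, and Yars and Lars2 lower in sh-Pfkp and higher in sh-Lin41. Of the genes named here, Lars, Mars1, Tars, Ears2, Wars2, Hars, Yars2 and Lars2 lost their sh-Pfkp calls with limma on log2(FPKM + 1). DESeq2 did not call Ears2, Wars2, Hars and Lars2 in sh-Pfkp either. In sh-Lin41 Hars was not called with DESeq2 or limma, so neither of its calls held, and limma did not call Iars2 and Wars2 there. Because sh-ctrl is shared, these counts are a description and not a comparison of independent results. Of all tested genes 56.6% were called in sh-Pfkp and 54.3% in sh-Lin41, and the share with each joint pattern was not counted.

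In sh-Pfkp against sh-Lin41, 27 of the 38 genes were called, 12 higher and 15 lower, or 71.05% where the share over all tested genes was 55.1% (27.4% higher and 27.8% lower). The knockdowns did not overlap for 14 genes higher in sh-Pfkp and 13 lower, beside 29.5% and 30.4% of all tested genes (59.8% in either direction). Of the cytosolic genes 9 were higher in sh-Pfkp (Dars, Eprs, Farsa, Farsb, Hars, Kars, Rars, Vars and Wars), 10 were lower (Aars, Cars, Iars, Lars, Mars1, Nars, Qars, Sars, Tars and Yars) and 2 were not called (Gars and Tarsl2). The called share was 90.5%, beside 69.8% of tested genes averaging 30 CPM or more. The largest differences were in Yars, at -0.37 ± 0.025 (SE; adjusted p = 4.05e-14), Farsa at 0.37 ± 0.030 (SE; adjusted p = 3.54e-12), Rars at 0.35 ± 0.028 (SE; adjusted p = 3.15e-12) and Cars at -0.33 ± 0.034 (SE; adjusted p = 1.13e-09). Yars had 215, 209.9 and 219 CPM in the sh-Pfkp libraries, against 269.8, 277 and 286 CPM in the sh-Lin41 libraries. Cars had 89.5, 93.3 and 96.0 CPM in the sh-Pfkp libraries, against 113, 119 and 117 CPM in the sh-Lin41 libraries. In each of these 4 genes the groups did not overlap. Gars, called lower than sh-ctrl in both, was at -0.015 (95% interval -0.055 to 0.025) between the knockdowns. It was called lower in sh-Pfkp with limma on log2(FPKM + 1), at -0.061 (adjusted p = 0.0264), where Farsb and Wars lost their calls and 7 cytosolic genes were higher and 11 lower. Removal of 1 library ended the calls of Lars without sh-Pfkp replicate 1, 2 or 3 or sh-Lin41 replicate 2 or 3 or sh-ctrl replicate 1, 2 or 3 (adjusted p from 0.0504 to 0.267) and of Mars1 without sh-Pfkp replicate 1 or 2 or sh-Lin41 replicate 3 (adjusted p from 0.0611 to 0.0924). It also ended the call of Tars without sh-Lin41 replicate 2 (adjusted p = 0.0542). Those 3 genes were not called with DESeq2, and Lars was also not called with DESeq2 size factors or in the fit of 6 libraries.

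Against sh-Lin41, 3 of the 17 mitochondrial genes were higher in sh-Pfkp (Sars2, Tars2 and Yars2), 5 were lower (Cars2, Hars2, Lars2, Nars2 and Rars2) and 9 were not called. The called share was 47.1%, beside 57.6% of tested genes averaging 5 to 100 CPM. Lars2 had 16.9, 15.9 and 14.4 CPM in the sh-Pfkp libraries, against 22.7, 23.8 and 20.8 CPM in the sh-Lin41 libraries, a log2 fold change of -0.51 ± 0.077 (SE; adjusted p = 1.21e-06). Sars2 had 25.8, 27.6 and 29.8 CPM in the sh-Pfkp libraries, against 19.5, 17.6 and 21.97 CPM in the sh-Lin41 libraries, a log2 fold change of 0.50 ± 0.071 (SE; adjusted p = 5.29e-07). Hars2 followed at -0.43 ± 0.050 (SE; adjusted p = 1.1e-08) and Yars2 at 0.35 ± 0.052 (SE; adjusted p = 1.01e-06). The libraries of these 4 genes did not overlap between the knockdowns, while Mars2, called higher than sh-ctrl in both, was at -0.027 (95% interval -0.13 to 0.075). Removal of 1 library ended the calls of Cars2 without sh-Pfkp replicate 2 or sh-Lin41 replicate 1 (adjusted p from 0.113 to 0.197) and of Nars2 without sh-Pfkp replicate 3 or sh-Lin41 replicate 2 (adjusted p from 0.0889 to 0.155). It also ended the call of Rars2 without sh-Pfkp replicate 2 or 3 or sh-Lin41 replicate 2 or 3 (adjusted p from 0.0649 to 0.222). Calls were gained by Iars2 without sh-Pfkp replicate 1 (adjusted p = 0.0478) and by Pars2 without sh-Pfkp replicate 2 (adjusted p = 0.0155). Under limma on log2(FPKM + 1) Tars2 lost its call and Iars2 was called lower, at -0.16 (adjusted p = 0.0144), which made 2 higher and 6 lower. With DESeq2 2 mitochondrial genes were called lower in place of 5, and 3 were without sh-Pfkp replicate 3 or sh-Lin41 replicate 2.

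Setting each cytosolic gene against the mitochondrial gene for the same amino acid gave 14 pairs, described here with no test. In sh-Pfkp the log2 ratio of cytosolic to mitochondrial CPM lay above all sh-ctrl libraries for 3 pairs, below for 5 and overlapped for 6, with a median change of -0.020. In sh-Lin41 it lay above sh-ctrl for 5, below for 5 and overlapped for 4, with a median change of -0.072. Taken singly, 61% of all tested genes in sh-Pfkp and 59% in sh-Lin41 did not overlap sh-ctrl. The share over other pairs of genes was not counted. The histidine ratio was 1.95 ± 0.055 in sh-Pfkp and 1.36 ± 0.052 in sh-Lin41 (mean ± SD), against 1.89 ± 0.0060 in sh-ctrl, and in sh-Lin41 Hars2 moved more than Hars. The tyrosine ratio split the knockdowns, at 2.49 ± 0.080 in sh-Pfkp and 3.21 ± 0.026 in sh-Lin41, against 2.84 ± 0.044 in sh-ctrl. The serine ratio did likewise, at 2.77 ± 0.098 in sh-Pfkp and 3.36 ± 0.17 in sh-Lin41, against 2.95 ± 0.059 in sh-ctrl. Asparagine and valine overlapped in all 3 comparisons. Summed over all genes of a compartment, the cytosolic to mitochondrial ratio of CPM was 8.84 ± 0.157 in sh-Pfkp, 8.70 ± 0.141 in sh-Lin41 and 9.46 ± 0.136 in sh-ctrl (SD, n = 3). Both knockdowns were below all sh-ctrl libraries in this ratio.

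**Figure D4:**
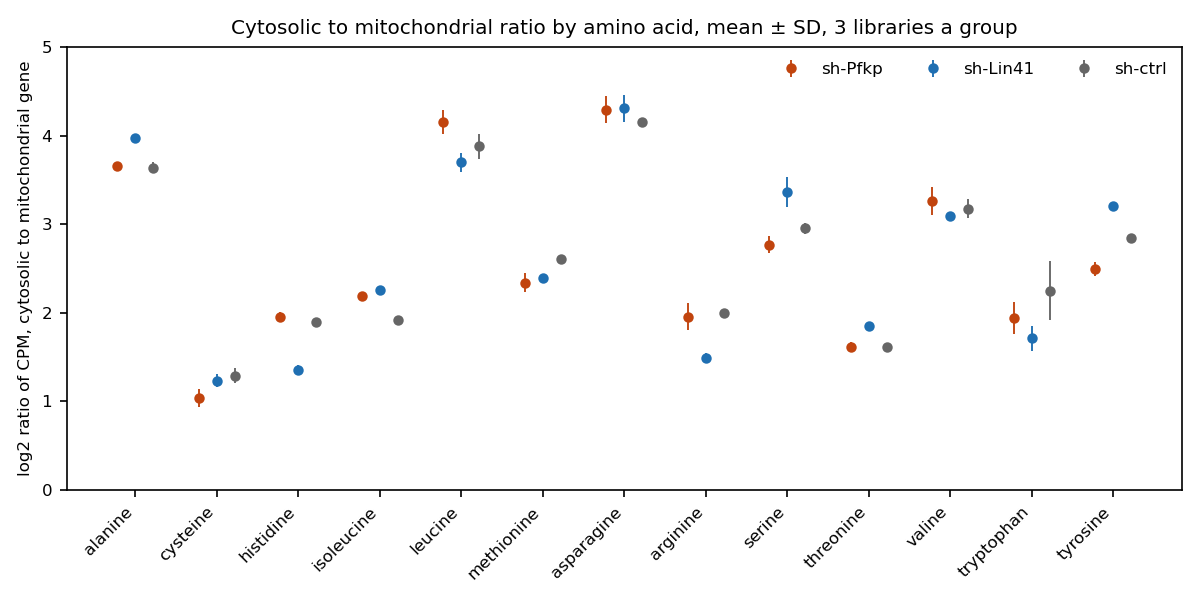
Log2 ratio of cytosolic to mitochondrial CPM for 13 of the 14 amino acids with a gene of each kind, as mean and SD of 3 libraries in sh-Pfkp, sh-Lin41 and sh-ctrl. The ratio lay above 0 for every amino acid drawn, and for tyrosine it was lowest in sh-Pfkp and highest in sh-Lin41.

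Synthetases described as ATF4 targets (Aars, Cars, Eprs, Gars, Iars, Mars1, Nars, Sars, Tars and Wars) were set beside other genes of that response. In sh-Pfkp 4 of these 10 rose, 2 fell and 4 were not called (60% called), and in sh-Lin41 7 rose and 3 fell (100%). Of tested genes averaging 30 CPM or more, 66.4% were called in sh-Pfkp and 68.9% in sh-Lin41, and of all tested genes 56.6% and 54.3%. The 10 had a median log2 fold change of 0.046 in sh-Pfkp and 0.21 in sh-Lin41. In sh-Lin41 the other 11 cytosolic genes had -0.17, with 3 higher and 7 lower (90.9% called). In sh-Pfkp against sh-Lin41 2 of the 10 were higher and 7 lower, and 7 of the other 11 were higher and 3 lower (90% and 90.9% called). There the share was 69.8% of tested genes averaging 30 CPM or more. Of the 5 genes with a response element in the promoter, 2 rose, 2 fell and 1 was not called in sh-Pfkp. Among the 9 cytosolic genes whose promoter had none, 2 rose, 4 fell and 3 were not called there. The 7 cytosolic genes with no promoter at hand had 2 rises, 1 fall and 4 without a call in sh-Pfkp, and 3 rises and 4 falls in sh-Lin41. Of the same 5 with an element, 4 rose and 1 fell (Gars) in sh-Lin41, and of the 9 whose promoter had none, 3 rose, 5 fell and 1 was not called. Eprs and Gars are on the ATF4 list and fell in both knockdowns. Under limma on log2(FPKM + 1) the counts of the 10 in sh-Pfkp were 2 higher (Iars and Sars) and 4 lower (Aars, Eprs, Gars and Nars), and in sh-Pfkp against sh-Lin41 they were 1 and 8. Of the 5 genes with a response element it called 1 higher (Iars) and 3 lower (Aars, Gars and Yars) in sh-Pfkp.

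Atf4 itself had 214, 214 and 213 CPM in the sh-Pfkp libraries, 314, 287 and 298 CPM in sh-Lin41 and 265, 271 and 264 CPM in sh-ctrl. It was lower in every sh-Pfkp library and higher in every sh-Lin41 library than in any sh-ctrl library, at -0.32 ± 0.027 (SE; adjusted p = 7.85e-12) in sh-Pfkp and 0.17 ± 0.026 (SE; adjusted p = 1.57e-06) in sh-Lin41. Of 24 stress-response genes outside the synthetases, a list that includes Atf4, 3 rose and 17 fell in sh-Pfkp (83.3% called, beside 56.6% of all tested genes), with a median log2 fold change of -0.34. In sh-Lin41 8 rose and 8 fell (66.7%, beside 54.3%), with a median of -0.019. The serine synthesis genes Phgdh and Psat1 were at -0.74 (adjusted p = 1.4e-18) and -0.47 (adjusted p = 1.14e-17) in sh-Pfkp, and Ddit4, an inhibitor of mTORC1, was at -0.84 (adjusted p = 1.36e-18) in sh-Pfkp and -1.21 (adjusted p = 2.86e-22) in sh-Lin41. In the same limma fit 1 of the 24 was called higher in sh-Pfkp in place of 3, since Atf5 and Slc7a11 lost their calls. Slc7a11 also lost its call without sh-Pfkp replicate 3. The stress-response fall in sh-Pfkp was known before the list was drawn up and is not independent of it.

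**Figure D5:**
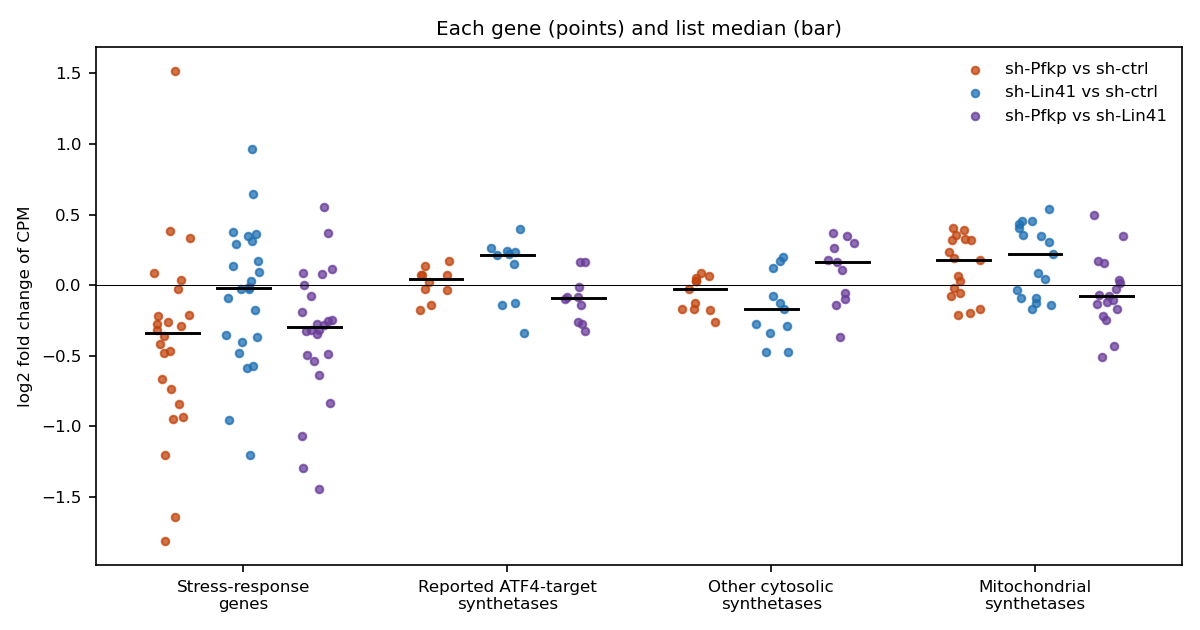
Log2 fold change of CPM of each gene (points) with the list median (bar) in 3 comparisons, for 24 stress-response genes, 10 synthetases described as ATF4 targets, the other 11 cytosolic synthetases and 17 mitochondrial synthetases. In sh-Pfkp against sh-ctrl the stress-response median lay at -0.34 and that of the ATF4-target synthetases at 0.046.

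Among the sensors and effectors of eIF2 phosphorylation, 2 of 9 rose and 4 fell in sh-Pfkp (66.7% called, beside 56.6% of all tested genes), and 4 rose and 4 fell in sh-Lin41 (88.9%, beside 54.3%). In sh-Pfkp the falls of Eif2ak4 and Ppp1r15b were not called with DESeq2, which left 2. Single left-out libraries ended them for Eif2ak4 without sh-Pfkp replicate 3 or sh-ctrl replicate 2 or 3 (adjusted p from 0.0653 to 0.123) and for Ppp1r15b without sh-Pfkp replicate 1 or sh-ctrl replicate 1 (adjusted p from 0.0593 to 0.0913). In sh-Lin41 the falls of Eif2ak4 and Ppp1r15a were not called with limma, which left 2. Single libraries ended them for Eif2ak4 without sh-Lin41 replicate 3 or sh-ctrl replicate 3 (adjusted p from 0.0728 to 0.0859) and for Ppp1r15a without sh-Lin41 replicate 3 or sh-ctrl replicate 3 (adjusted p from 0.0678 to 0.127). Impact, which restrains the uncharged-tRNA sensor GCN2, rose in sh-Pfkp at 0.39 (adjusted p = 1.33e-14) and in sh-Lin41 at 0.27 (adjusted p = 5.12e-11). Gcn1, the activator of GCN2 on ribosomes, fell in sh-Lin41 at -0.28 (adjusted p = 2.88e-11), and Eif2s1, the subunit of eIF2 that is phosphorylated, fell there at -0.29 (adjusted p = 1.43e-12). The complex scaffolds differed from one another. Aimp1 fell in both knockdowns, at -0.15 (adjusted p = 0.00289) in sh-Pfkp and -0.33 (adjusted p = 6.77e-08) in sh-Lin41. Eef1e1 rose at 0.13 (adjusted p = 0.00321) in sh-Pfkp and 0.12 (adjusted p = 0.00603) in sh-Lin41. Aimp2 was not called in either, at 0.092 (95% interval 0.0062 to 0.18) in sh-Pfkp and -0.089 (95% interval -0.18 to -0.0022) in sh-Lin41. In sh-Lin41 the call was lost for Eef1e1 without sh-ctrl replicate 1 (adjusted p = 0.0672), and in sh-Pfkp a call was gained for Aimp2 without sh-Pfkp replicate 2 (adjusted p = 0.0397). With limma on log2(FPKM + 1) Eef1e1 lost its call in sh-Pfkp and Aimp2 gained one in sh-Lin41.

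Genes of the tRNA supply were read next. Of 13 genes of tRNA transcription, processing and export, 6 rose and 3 fell in sh-Pfkp, 2 rose and 7 fell in sh-Lin41, and 9 were called higher and 1 lower in sh-Pfkp against sh-Lin41. The called shares were 69.2%, 69.2% and 76.9%, beside 56.6%, 54.3% and 55.1% of all tested genes. Xpot, the tRNA exporter, had 327, 319 and 316 CPM in the sh-Pfkp libraries, 243, 242 and 252 CPM in sh-Lin41 and 318, 317 and 327 CPM in sh-ctrl, and it fell in sh-Lin41 at -0.38 ± 0.023 (SE; adjusted p = 2.75e-15) with no overlap. Polr3g, a subunit of RNA polymerase III, fell in sh-Lin41 at -0.54 ± 0.030 (SE; adjusted p = 3.28e-16), while its paralog Polr3gl fell in sh-Pfkp at -0.91 ± 0.12 (SE; adjusted p = 7.09e-08) and rose in sh-Lin41 at 0.62 ± 0.098 (SE; adjusted p = 3.02e-06). Polr3gl had 5.37, 5.90 and 4.60 CPM in the sh-Pfkp libraries, 14.7, 15.1 and 16.1 CPM in sh-Lin41 and 9.50, 11.1 and 9.33 CPM in sh-ctrl, so its 3 groups stood apart. The 7 falls in sh-Lin41 became 4 with DESeq2 and without sh-ctrl replicate 1, since Elac2, Polr3a and Thg1l lost their calls. Those calls were also lost on leaving out other libraries, for Polr3a without sh-Lin41 replicate 1 or sh-ctrl replicate 1 (adjusted p from 0.166 to 0.215) and for Thg1l without sh-ctrl replicate 1 or 3 (adjusted p from 0.0533 to 0.0878). In sh-Pfkp the fall of Polr3g, -0.068 (adjusted p = 0.0473), was lost without any 1 of the 9 libraries, with DESeq2 and its size factors, with no filter on low counts and in the fit of 6 libraries. In sh-Pfkp against sh-Lin41 the lower genes numbered 3 with limma and 2 without sh-Lin41 replicate 3. Ssb, the La protein that binds new polymerase III transcripts, fell in both, at -0.094 (adjusted p = 0.000193) in sh-Pfkp and -0.23 (adjusted p = 2.33e-11) in sh-Lin41.

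For mitochondrial tRNA, Trmt10c and Prorp, parts of mitochondrial RNase P, rose in sh-Pfkp at 0.33 (adjusted p = 1.54e-07) and 0.38 (adjusted p = 6.57e-09), and Elac2, which trims tRNA 3′ ends, rose there at 0.31 (adjusted p = 2.96e-09). Trmt10c fell in sh-Lin41 at -0.19 (adjusted p = 0.000631). Of the 8 genes of that list 3 rose and 1 fell in sh-Pfkp, and 2 rose and 2 fell in sh-Lin41, so 4 of 8 were called in each. That is 50%, beside 56.6% and 54.3% of all tested genes. The fall in sh-Pfkp was lost with DESeq2 and for Hsd17b10 without sh-Pfkp replicate 1 or sh-ctrl replicate 3 (adjusted p from 0.0791 to 0.0911). In sh-Lin41 the calls of Elac2, Gtpbp3 and Prorp were lost with DESeq2, and singly left-out libraries ended them for Elac2 without sh-Pfkp replicate 1 or 3 or sh-Lin41 replicate 2 or sh-ctrl replicate 1 or 2 (adjusted p from 0.0521 to 0.415) and for Prorp without sh-Lin41 replicate 1 or 2 or sh-ctrl replicate 1, 2 or 3 (adjusted p from 0.0502 to 0.104). The amidotransferase genes had no call in sh-Pfkp, where Qrsl1, the catalytic subunit, was at 0.12 (95% interval -0.087 to 0.32). The called shares of the 3 genes were 0% in sh-Pfkp and 66.7% in sh-Lin41, beside the same 56.6% and 54.3%. In sh-Lin41 Gatb rose at 0.36 (adjusted p = 0.00522) and Qrsl1 fell at -0.30 (adjusted p = 0.0138), a call that was lost for Qrsl1 without sh-Lin41 replicate 2 or sh-ctrl replicate 1 (adjusted p from 0.0564 to 0.102). In sh-Pfkp a call was gained for Gatc without sh-Pfkp replicate 1 (adjusted p = 0.0225). A list of 6 genes held tRNA editing genes and 2 of the peptidyl-tRNA hydrolase family, Ptrhd1 and Ptrh2. Those 2 were the ones that rose in sh-Pfkp, where 2 others fell, and 0 rose and 2 fell in sh-Lin41. The called shares of the 6 were 66.7% and 33.3%, beside 56.6% and 54.3% of all tested genes. The rise of Ptrh2 in sh-Pfkp was lost with DESeq2, with limma and for Ptrh2 without sh-Pfkp replicate 1 (adjusted p = 0.0764), and the fall of Aarsd1 in sh-Lin41 with DESeq2 and for Aarsd1 without sh-Lin41 replicate 1 or sh-ctrl replicate 3 (adjusted p from 0.056 to 0.0754). Among these genes Dtd1, a deacylase that clears D-amino acids from tRNA, fell in both, at -0.47 (adjusted p = 0.000198) in sh-Pfkp and -0.55 (adjusted p = 2.44e-05) in sh-Lin41.

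Factors of translation elongation and related steps were also read. Of 6 cytosolic factors 4 fell and 0 rose in sh-Pfkp (66.7% called, beside 56.6% of all tested genes). Eef1a1, which delivers aminoacyl-tRNA to the ribosome, was at -0.16 (adjusted p = 1.23e-14) and Eef2, the translocase, at -0.13 (adjusted p = 2.39e-10). The sh-Pfkp fall of Eef1b2 was lost with DESeq2, with limma and for Eef1b2 without sh-Pfkp replicate 1 or sh-ctrl replicate 1, 2 or 3 (adjusted p from 0.061 to 0.405). In sh-Lin41 2 rose and 2 fell (66.7% called, beside 54.3% of all tested genes), with Eif5a at -0.37 (adjusted p = 1.88e-17) and Eef1d at -0.26 (adjusted p = 2.07e-09). The rise of Eef1a1 there, 0.026 (adjusted p = 0.0375), was lost with DESeq2 and its size factors, with no filter on low counts, with limma and for Eef1a1 without sh-Pfkp replicate 2 or sh-Lin41 replicate 1 or 2 or sh-ctrl replicate 2 or 3 (adjusted p from 0.051 to 0.134). Of 5 mitochondrial factors 2 rose and 1 fell in sh-Pfkp, and 0 rose and 3 fell in sh-Lin41 (60.0% called in each, near the same 56.6% and 54.3%). With limma the counts were 1 and 3 in sh-Pfkp and 0 and 1 in sh-Lin41, and with DESeq2 1 fell in sh-Lin41. Gfm1, the mitochondrial translocase, rose in sh-Pfkp at 0.15 (adjusted p = 0.000215). In sh-Lin41 leaving out 1 library ended the calls of Gfm1 without sh-Lin41 replicate 1 or 3 or sh-ctrl replicate 2 (adjusted p from 0.0542 to 0.131) and of Guf1 without sh-Lin41 replicate 1 or 3 or sh-ctrl replicate 2 or 3 (adjusted p from 0.0648 to 0.133). In sh-Pfkp it ended the call of Tufm without sh-Pfkp replicate 3 or sh-ctrl replicate 1 (adjusted p from 0.096 to 0.104).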

How the data were processed

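RNA-seq libraries of 9 day 6 embryoid body samples (3 each of sh-Pfkp, sh-Lin41 and sh-ctrl) were analysed from deposited gene tables. Upstream tools, per the submitters' processing notes, were HISAT2, RSEM, StringTie 1.3.1, Bowtie2 2.2.8 and fastp 0.18.0, with no order stated. Strand setting, annotation and genome build: not given in the sources used here. The authors deposited a whole-number count per gene and library, which may be a rounded RSEM estimate, beside FPKM values. Their comparison tables hold group means of FPKM, a log2 ratio of those means, and a p-value with its FDR, per the file headers.

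Genes passing filterByExpr (13158 of 22322) were fitted with edgeR 4.0.16 (R 4.3.3), using TMM scaling, all 9 libraries and a quasi-likelihood test with Benjamini-Hochberg adjustment at 0.05. SE is the absolute log2 fold change over the square root of F, and 95% intervals use the fit's t distribution. Alternatives used DESeq2 1.42.0 and limma 3.58.1 on log2(FPKM + 1), and the fit was tested on simulated data. Total counts of 15495194 to 20607683 per library limit precision most for the mitochondrial genes. The genes named are all synthetases, plus from each other list those with the smallest adjusted p, further genes being chosen after their values were seen. Members and lists were chosen with earlier results of these data known. Promoters came from RefSeq (GRCm38.p6) and gene overlaps from GENCODE M21. The named values of 1 mitochondrial gene and the sequence of 1 promoter match are not reported here.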

Additional observations from a re-analysis of the deposited data

How the results depend on the processing

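Requiring at least 2-fold left 0 cytosolic and 0 mitochondrial genes, higher or lower, in all 3 comparisons. Over all tested genes it left 297 higher and 560 lower in sh-Pfkp against sh-ctrl, 268 and 292 in sh-Lin41 against sh-ctrl, and 193 and 398 in sh-Pfkp against sh-Lin41. With limma on log2(FPKM + 1), 2 cytosolic and 4 mitochondrial genes were higher and 10 cytosolic genes lower in sh-Pfkp than in sh-ctrl, and 1 mitochondrial gene was lower in sh-Lin41 than in sh-ctrl. With DESeq2, 1 mitochondrial gene was lower in sh-Pfkp than in sh-ctrl and 2 were lower in sh-Pfkp than in sh-Lin41. DESeq2 also lost the calls of Ears2, Wars2, Hars and Tarsl2 in sh-Pfkp against sh-ctrl. The cause was not tested. Leaving out 1 library moved the higher cytosolic genes of sh-Pfkp against sh-ctrl between 3 and 8, and the lower mitochondrial genes between 1 and 2. The lower mitochondrial genes numbered 1 to 3 in sh-Lin41 against sh-ctrl and 3 to 6 in sh-Pfkp against sh-Lin41. No value changed direction while called in any of these alternatives, and DESeq2 size factors, no low-count filter, fitting 6 libraries, and counting Tarsl2 with the mitochondrial symbols kept each compartment's count within 1.5 times. Deviations of libraries with the same number correlated at 7.26e-05, 0.125 and 0.0887 between sh-Pfkp and sh-ctrl, and at 0.0101, -0.0382 and -0.0602 between sh-Lin41 and sh-ctrl, so the numbers were not taken as pairs. With a replicate block the compartments' counts in sh-Pfkp were 6 and 7 cytosolic and 8 and 2 mitochondrial genes, higher and lower, and 10 and 10 cytosolic and 8 and 2 mitochondrial in sh-Lin41, and no synthetase call changed. Mitochondrial genes, with as few as 87 counts in a library, had the widest intervals.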
